A study of Mus musculus with 7 samples.

Results

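The genes described here are 8 genes of dopamine signalling in striatal neurons: the receptor genes Drd1, Drd2, Adora2a and Gpr6, the signal transduction genes Ppp1r1b and Rgs9, and the neuropeptide genes Penk and Tac1. They were chosen by name, with earlier results of these data known. The brightest probe set whose annotation held exactly 1 of these symbols was to stand for each gene. Of the 8 genes, 7 had such a probe set, 1 each. Adora2a, an adenosine receptor gene, was matched to no probe set and is not analysed here. Of the 7 measured genes, 6 passed the filter on dim probe sets and were tested among 16144 genes, and Tac1 did not pass it.

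Expression was measured in whole neocortex of C57BL/6 mice with a 1-colour Affymetrix array per sample, in 4 CKO and 3 WT samples. The CKO samples have a genotype that names COUP-TFI and Nex-Cre, and the WT samples are labelled wild type. COUP-TFI is the orphan nuclear receptor encoded by Nr2f1, which gives neocortical areas their identity. Nex-Cre expresses the Cre recombinase from the Neurod6 locus in postmitotic glutamatergic neurons of the dorsal telencephalon. The sources used here give neither the age of the mice nor whether the WT samples carried a floxed allele or Cre. Samples carry their label numbers, which are 1, 4, 34 and 43 for CKO and 6, 27 and 38 for WT. No label states that the samples are separate animals, so the spread behind each p-value may be partly technical.

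Dopamine acts on medium spiny neurons, the GABAergic output neurons of the striatum, through 2 main receptors. The D1 receptor couples to the stimulatory G protein Golf and raises cAMP in neurons of the direct pathway, which also make substance P from the Tac1 precursor. The D2 receptor couples to inhibitory G proteins and lowers cAMP in neurons of the indirect pathway, which also make enkephalin from Penk and carry the Adora2a receptor and Gpr6. DARPP-32, encoded by Ppp1r1b, becomes an inhibitor of protein phosphatase 1 when protein kinase A phosphorylates it, and RGS9 speeds up the end of G protein signals. Several of these genes are also used outside the striatum: Drd1 and Ppp1r1b in deep-layer neurons of the cortex, Penk and Tac1 in classes of cortical interneurons.

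Promoters of 5 of the 8 genes were in the RefSeq promoter table of build GRCm38.p6 (Drd1 with 2 start sites, Drd2, Gpr6, Rgs9 and Tac1), each as 250 bases before to 50 bases after the start of the gene. The promoters of the 3 receptor genes with a probe set are shown, because Drd1 and Gpr6 differed from Drd2 in which samples were high and because the COUP-TF proteins are known to bind repeats of AGGTCA. They lie at chr13:54055609-54055908 (minus strand, the more upstream of the 2 Drd1 starts), chr9:49340153-49340452 (plus strand) and chr10:41072241-41072540 (minus strand), and read 5′ to 3′ along the gene. Capitals mark the cAMP response element TGACGTCA, which the transcription factor CREB binds downstream of protein kinase A.
Drd1: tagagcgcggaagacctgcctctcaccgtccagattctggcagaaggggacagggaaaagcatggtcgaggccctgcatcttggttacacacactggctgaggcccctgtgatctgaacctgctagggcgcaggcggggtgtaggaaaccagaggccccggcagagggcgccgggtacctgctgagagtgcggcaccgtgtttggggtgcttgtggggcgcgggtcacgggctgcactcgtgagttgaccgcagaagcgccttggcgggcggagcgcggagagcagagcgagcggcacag
Drd2: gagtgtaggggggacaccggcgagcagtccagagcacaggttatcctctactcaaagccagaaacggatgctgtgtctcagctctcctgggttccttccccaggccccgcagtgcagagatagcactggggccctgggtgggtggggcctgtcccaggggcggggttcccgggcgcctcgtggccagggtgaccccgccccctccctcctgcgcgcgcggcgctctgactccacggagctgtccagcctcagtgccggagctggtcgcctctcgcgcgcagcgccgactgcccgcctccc
Gpr6: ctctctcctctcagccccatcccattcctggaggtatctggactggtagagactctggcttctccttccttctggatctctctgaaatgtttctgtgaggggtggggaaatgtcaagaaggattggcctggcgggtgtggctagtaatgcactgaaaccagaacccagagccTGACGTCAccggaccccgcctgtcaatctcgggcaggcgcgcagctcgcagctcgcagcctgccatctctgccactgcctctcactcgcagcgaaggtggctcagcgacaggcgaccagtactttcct
The letters AGGTCA or their reverse complement TGACCT were in 0 of the 6 promoter windows of these genes and in 16.3% of the 32851 promoters in the table. TGACGTCA, the same on both strands, was in Gpr6 alone among the 5 genes, where it began at position -78, counted from the first transcribed base, and in 1.79% of all promoters. Its shorter form TGACG, or CGTCA on the other strand, was in 20.8% of all promoters. It lies inside the Gpr6 element, and the Tac1 promoter held it at positions -197 and -43.

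The values are log2 signals made with RMA (robust multi-array average, which corrects the background, normalizes between arrays and summarises the probes of a probe set), per the submitters' processing notes, and differences are CKO minus WT. The number of arrays limits their precision. The arrays had a median log2 signal of 8.23 each. Nr2f1, the targeted gene, had log2 signals between 10.60 and 10.79 in CKO and between 10.88 and 11.16 in WT (difference -0.36, limma SE 0.074). Its position relative to the deletion is unknown here, so this checks no label. As a description of the tissue, 12 genes of neocortical projection neurons, among them Emx1, Tbr1 and Slc17a7, were averaged on each array. Their mean log2 signal was 11.56 to 11.61 in CKO and 11.51 to 11.64 in WT. With no other tissue measured, these values do not check the tissue label. No label names an array lot. Lots were inferred here from digits that sample titles share, and no source used here says if they mark a processing batch. They put CKO 1 and CKO 4 in lot 1, WT 6 in lot 3 and the other 4 arrays in lot 2. The title of WT 6 shares its later digits with those of lot 2, so WT 6 could also be read as part of lot 2. Lots 1 and 3 held 1 group each, so values within lot 2 (CKO 34, CKO 43, WT 27 and WT 38) are given beside those over all 7 arrays.

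All 6 tested genes had a higher mean in CKO than in WT over the 7 arrays, though Rgs9 did not within lot 2, and none passed limma's adjusted p of 0.05 over all genes. The groups did not overlap for 3 of the 6, Drd1, Gpr6 and Ppp1r1b, all higher in CKO. Of all 16144 genes, 0.0248% were called (4 genes), and for 5.39% every CKO array lay above every WT array. The same 3 genes had an unadjusted p under 0.05, as did 6.79% of all genes in either direction. The count among the 6 genes, whichever they were, was 1 without CKO 1 or without WT 38 and 2 without WT 6 or without WT 27. It was 3 without each of the other arrays. Without CKO 4, Drd2 was among the 3 (difference 0.34, limma SE 0.111), so they were not the same 3 genes. The median difference of the 6 genes was 0.20, and that of all genes tested was 0.014, with 58.9% of all genes above 0. The 6 genes were chosen with earlier results of these data known, so these medians and directions are a description and no test. With 1 array left out in turn, the median of the 6 ran from 0.15 without CKO 34 to 0.23 without CKO 4. In bulk tissue, a change in the number of cells of a type and a change in RNA per cell cannot be told apart.

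**Figure D1:**
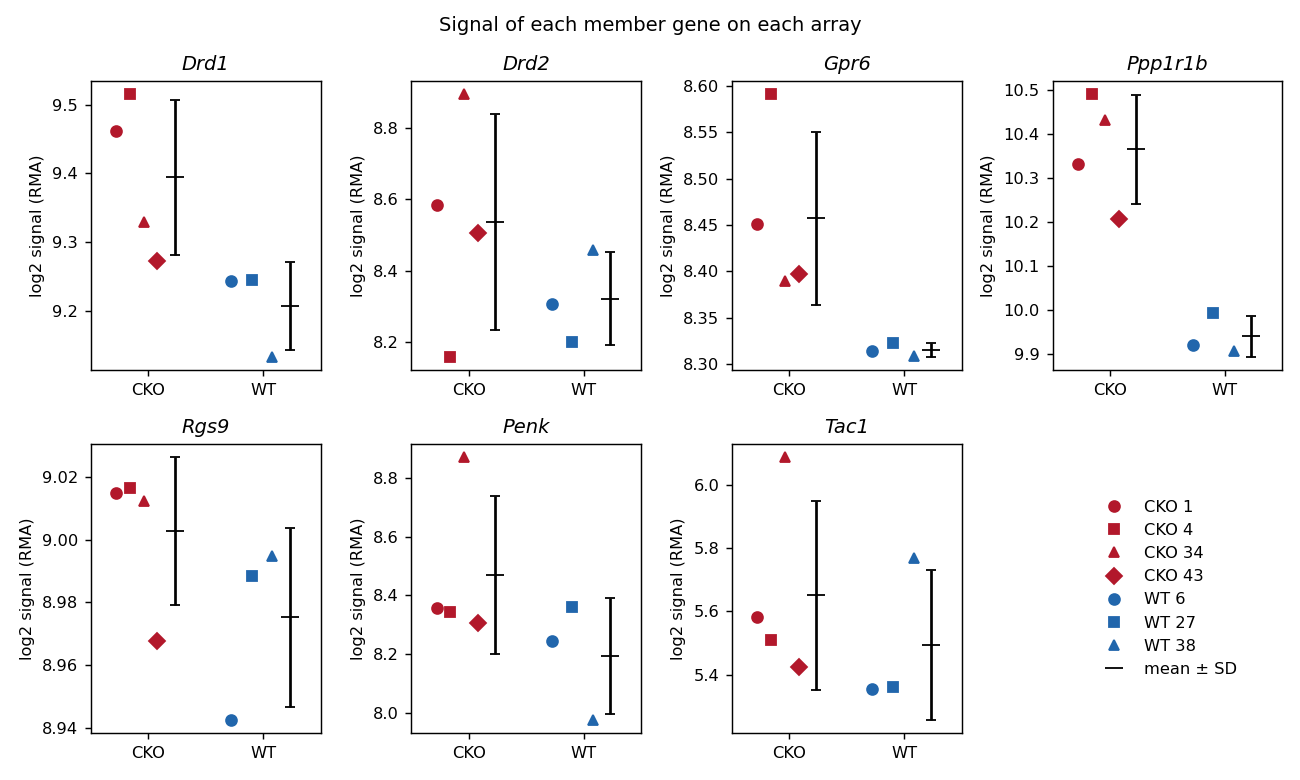
Log2 signal (RMA, vertical axis, a separate scale per gene) of the 7 measured genes in the 4 CKO arrays (red, left) and 3 WT arrays (blue, right), with a marker per array and the mean ± SD in black. The CKO arrays of Drd1, Gpr6 and Ppp1r1b lie above every WT array, while those of Drd2, Rgs9, Penk and Tac1 overlap the WT arrays.

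Among the receptor genes, Drd1 had log2 signals of 9.46, 9.52, 9.33 and 9.27 in CKO 1, CKO 4, CKO 34 and CKO 43, against 9.244, 9.245 and 9.13 in WT 6, WT 27 and WT 38. Every CKO array lay above every WT array, by a gap of 0.028 between the lowest CKO and the highest WT value. The means were 9.39 ± 0.113 in CKO (SD, n = 4) and 9.21 ± 0.064 in WT (SD, n = 3), a 1.14-fold difference. The difference of 0.19 (limma SE 0.066, 95% interval 0.036 to 0.34) had an adjusted p of 0.717 in limma and a two-sided exact permutation p of 0.0571, where the smallest that 35 splits allow is 0.0286. The highest arrays, CKO 4 and CKO 1, are those of lot 1, and within lot 2 the difference was 0.11.

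In Drd2, CKO 4 held the opposite place to the one it held in Drd1. Its log2 signals were 8.58, 8.16, 8.89 and 8.50 in CKO 1, CKO 4, CKO 34 and CKO 43, against 8.31, 8.20 and 8.46 in WT 6, WT 27 and WT 38. CKO 34 was the highest of the 7 arrays and CKO 4, the highest for Drd1, was the lowest, so the groups overlapped. The means were 8.53 ± 0.302 in CKO (SD, n = 4) and 8.32 ± 0.129 in WT (SD, n = 3). The difference of 0.21 (limma SE 0.151, 95% interval -0.13 to 0.56) had an adjusted p of 0.763 in limma and an exact permutation p of 0.314. CKO 34 and CKO 4 moved it most: it was 0.093 without CKO 34 and 0.34 without CKO 4. Within lot 2, which holds CKO 34 but not CKO 4, it was 0.37.

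Gpr6 encodes an orphan receptor that raises cAMP without an added ligand. Its log2 signals were 8.45, 8.59, 8.39 and 8.40 in CKO 1, CKO 4, CKO 34 and CKO 43, against 8.31, 8.32 and 8.31 in WT 6, WT 27 and WT 38. The WT arrays lay close together (mean 8.31 ± 0.0073, SD, n = 3) and below every CKO array, and CKO 4 stood highest. The difference of 0.14 (limma SE 0.054, 95% interval 0.019 to 0.27), 1.10-fold, had an adjusted p of 0.723 in limma and an exact permutation p of 0.0571. It was 0.098 without CKO 4 and 0.078 within lot 2, where CKO 34 and CKO 43 still lay above both WT arrays.

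Ppp1r1b, which encodes DARPP-32, had the smallest p of the 6 tested genes and ranked 14 by p among 16144. Its log2 signals were 10.33, 10.49, 10.43 and 10.21 in CKO 1, CKO 4, CKO 34 and CKO 43, against 9.92, 9.99 and 9.91 in WT 6, WT 27 and WT 38. The lowest CKO array lay 0.21 above the highest WT array, a wider gap than any between neighbouring arrays of 1 group. The means were 10.37 ± 0.125 in CKO (SD, n = 4) and 9.94 ± 0.047 in WT (SD, n = 3), 1.34-fold higher in CKO. The difference of 0.43 (limma SE 0.068, 95% interval 0.27 to 0.58) had an adjusted p of 0.251 in limma, and the exact permutation p was 0.0286. It ran from 0.38 without CKO 4 to 0.48 without CKO 43, with limma adjusted p-values from 0.117 to 0.627, and was 0.37 within lot 2.

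Rgs9 encodes a regulator of G protein signalling whose long form is enriched in the striatum. Its log2 signals were 9.01, 9.02, 9.01 and 8.97 in CKO 1, CKO 4, CKO 34 and CKO 43, against 8.94, 8.988 and 8.995 in WT 6, WT 27 and WT 38. The 7 arrays spanned 0.074, the narrowest range of the measured genes, and CKO 43 lay below WT 27 and WT 38. The difference was 0.028 (limma SE 0.036, adjusted p 0.859), with a 95% interval of -0.055 to 0.11. Within lot 2 it was -0.0016, so no direction is given for Rgs9.

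**Figure D2:**
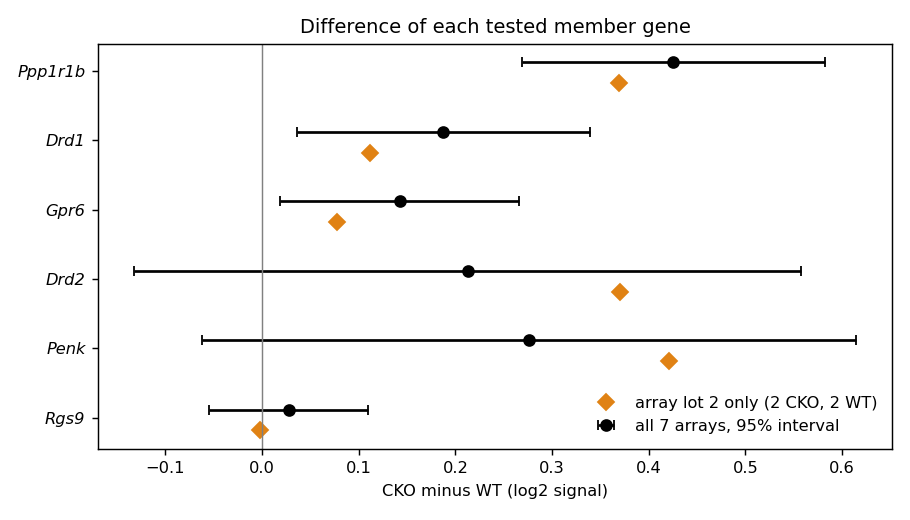
Difference in log2 signal, CKO minus WT (horizontal axis), of the 6 tested genes (rows), as the limma estimate over all 7 arrays with its 95% interval (black) and as the difference of means within array lot 2, with 2 CKO and 2 WT arrays (orange). Ppp1r1b, Drd1 and Gpr6 have intervals above 0 before adjustment over all genes, and within lot 2 Drd1 and Gpr6 lie nearer to 0 and Drd2 and Penk farther from it.

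The neuropeptide genes, like Drd2, had wide spreads within the groups. Penk, the enkephalin precursor gene, had log2 signals of 8.36, 8.34, 8.87 and 8.31 in CKO 1, CKO 4, CKO 34 and CKO 43, against 8.24, 8.36 and 7.98 in WT 6, WT 27 and WT 38. CKO 34 lay 0.51 above the next array, WT 27, and the other 3 CKO arrays lay within 0.05 of each other. The means were 8.47 ± 0.269 in CKO (SD, n = 4) and 8.19 ± 0.197 in WT (SD, n = 3). The difference of 0.28 (limma SE 0.148, 95% interval -0.062 to 0.61) had an adjusted p of 0.735 in limma and an exact permutation p of 0.257. It was 0.14 without CKO 34, 0.17 without WT 38 and 0.42 within lot 2, which holds both of these arrays.

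Tac1, the precursor gene of substance P and neurokinin A, lay under the filter of 6.84 on the mean log2 signal, so its values are close to the dim end of the array. They were 5.58, 5.51, 6.09 and 5.42 in CKO 1, CKO 4, CKO 34 and CKO 43, against 5.36, 5.36 and 5.77 in WT 6, WT 27 and WT 38. CKO 34 was again the highest array and the groups overlapped. The difference of the means was 0.16, with an exact permutation p of 0.571, and with no filter limma gave an adjusted p of 0.826.

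The measured genes thus differed in which CKO array stood out. CKO 4 was the highest array for Drd1, Gpr6, Ppp1r1b and, by 0.0017, for Rgs9. CKO 34 was the highest for Drd2, Penk and Tac1. CKO 4 deviated from the mean of the 7 arrays by 0.20 for Drd1, 0.19 for Gpr6 and 0.31 for Ppp1r1b, but by -0.29 for Drd2, -0.0075 for Penk and -0.075 for Tac1. CKO 34 deviated by 0.45 for Drd2, 0.52 for Penk and 0.50 for Tac1, and by 0.015 for Drd1, -0.0062 for Gpr6 and 0.25 for Ppp1r1b. The genes of each set were put together after these values were seen, so no test is given for the sets.

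The transcription factor genes of striatal precursors varied between the same arrays. The mean of 15 such genes deviated by 0.30 on CKO 34, 0.15 on CKO 1, 0.11 on CKO 43 and -0.10 on CKO 4, against -0.12 on WT 6, -0.30 on WT 27 and -0.041 on WT 38. CKO 34, CKO 1, CKO 43 and WT 38 were the 4 highest arrays, in this order, both for this mean and for Drd2. Penk and Tac1 did not share this order. WT 27, the lowest array for this mean, was the second highest for Penk, and WT 38 was the lowest for Penk. For Tac1, WT 38 was the second highest. Isl1, a LIM homeobox gene of striatal neurons of the direct pathway and of cholinergic neurons, was at 8.86, 7.74, 8.70 and 8.73 in CKO 1, CKO 4, CKO 34 and CKO 43, against 7.91, 7.23 and 7.89 in WT 6, WT 27 and WT 38. CKO 4 was thus the lowest CKO array for Isl1 and the highest for Drd1. Of these 15 genes, 14 had a positive difference, and every one was above the filter. Their summed linear signal was 20580 to 23640 in CKO and 19340 to 21070 in WT. The brightest genes, Meis2 (mean log2 signal 13.28 in CKO, 13.23 in WT) and Bcl11b (12.01 and 11.86), weigh most in this sum. Foxp2 is also 1 of the layer 6 markers used below, so the sum does not measure striatal cells alone. How far the signal of the other genes, Meis2 and Bcl11b among them, came from striatal cells was not tested. The part of the 15 genes in the differences of the 6 tested genes was not tested.

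**Figure D3:**
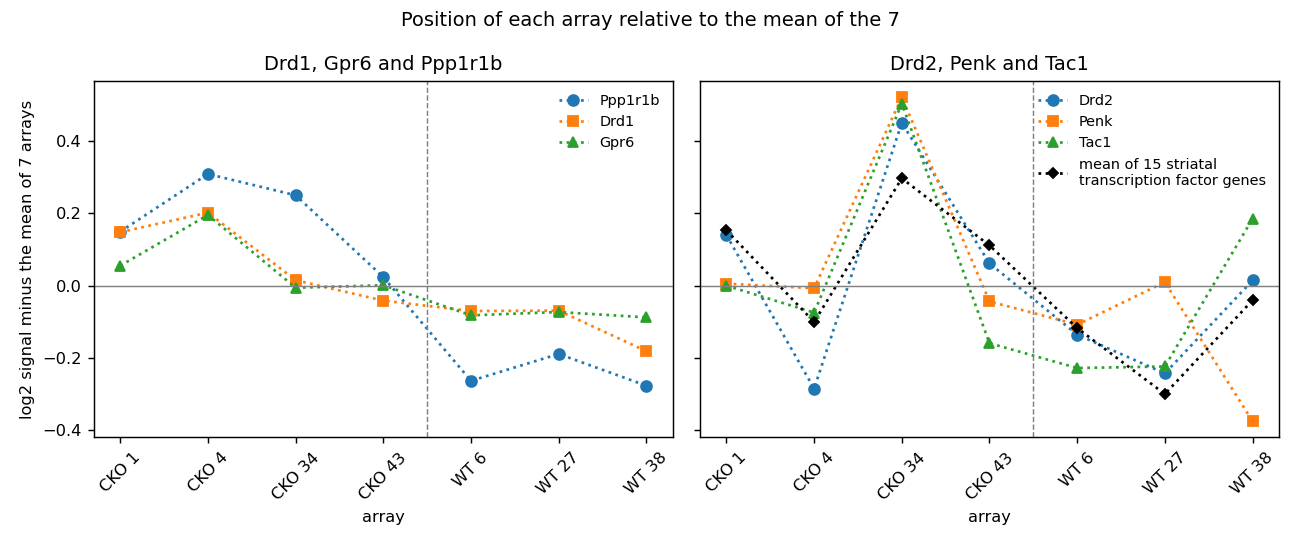
Log2 signal minus the mean of the 7 arrays (vertical axis) on each array (horizontal axis, 4 CKO left of the dashed line and 3 WT right of it), for Drd1, Gpr6 and Ppp1r1b (left panel) and for Drd2, Penk, Tac1 and the mean of 15 striatal transcription factor genes (right panel). Dotted lines only join the points of a gene. CKO 4 is the highest array in the left panel and CKO 34 in the right panel. There, CKO 4 lies below the mean of the 7 for Drd2, Tac1 and the transcription factor mean. For Penk, CKO 4 lies close to the mean (-0.0075). WT 38 is the lowest array for Penk and the second highest for Tac1.

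Each measured gene was set against Drd2 and against Penk over the 7 arrays, 11 pairs in all. The 2 pairs with Ppp1r1b were given no pooled test, because the gap between its CKO and WT arrays was wider than any gap within a group. Drd1 and Gpr6, whose groups did not overlap either, had wider gaps within a group and were kept. No pooled correlation is given for these 2. Of the other 9 pairs, 0 passed an exact permutation test after Benjamini-Hochberg adjustment, and 1 had an unadjusted p under 0.05. Array lot 2 holds 4 arrays, too few for a correlation within it.

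Pairs with Tac1 rest on values near the dim end of the array, because Tac1 lay under the filter on dim probe sets. Tac1 with Drd2 had the highest correlation, with Pearson r = 0.81 (exact permutation p = 0.0276, adjusted 0.248) and Spearman rho = 0.61 (exact permutation p = 0.167, adjusted 0.89). Without CKO 34 and CKO 4, the arrays farthest from the median of Drd2, r was 0.59 over 5 arrays, and without CKO 34 alone it was 0.45. With the mean of each group subtracted, r was 0.79 (exact permutation within groups, p = 0.0833). Penk with Drd2, the pair of genes of indirect pathway neurons, had r = 0.60 (exact permutation p = 0.148, adjusted 0.63) and rho = 0.29 (exact permutation p = 0.556, adjusted 0.892). That relation rested on CKO 34: r was -0.25 without it and -0.12 without CKO 34 and CKO 4. Tac1 with Penk had r = 0.53 (exact permutation p = 0.21, adjusted 0.63), rho = 0.25 (exact permutation p = 0.595, adjusted 0.892) and r = 0.53 without CKO 34 and WT 38, but -0.71 without CKO 34 alone.

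The pooled correlations of Drd1 and Gpr6 with Drd2 were near 0 and their sign rested on CKO 4. Drd1 with Drd2 had r = -0.044 (exact permutation p = 0.926, adjusted 0.926) and rho = 0.071 (exact permutation p = 0.906, adjusted 1). Gpr6 with Drd2 had r = -0.15 (exact permutation p = 0.726, adjusted 0.816) and rho = 0 (exact permutation p = 1, adjusted 1). With group means subtracted, r was -0.65 for Drd1 (exact permutation within groups, p = 0.215) and -0.83 for Gpr6 (p = 0.0903, likewise exact). Without CKO 4, the highest array for both genes and the lowest for Drd2, the pooled r was 0.44 for Drd1 and 0.60 for Gpr6, and without CKO 4 and CKO 34 it was 0.47 and 0.75 over 5 arrays. With group means subtracted, Ppp1r1b had r = -0.25 with Drd2 (exact permutation within groups, p = 0.806) and r = 0.46 with Penk (exact permutation within groups, p = 0.438).

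With Penk, Drd1 had r = 0.39 (exact permutation p = 0.413, adjusted 0.741) and rho = 0.57 (exact permutation p = 0.20, adjusted 0.89), and Gpr6 had r = 0.23 (exact permutation p = 0.576, adjusted 0.741) and rho = 0.43 (exact permutation p = 0.354, adjusted 0.89). Without CKO 34 and WT 38, the arrays farthest from the median of Penk, r was 0.51 for Drd1 and 0.44 for Gpr6. With group means subtracted both turned to values below 0, -0.044 for Drd1 and -0.35 for Gpr6. Rgs9 had r = 0.27 with Drd2 (exact permutation p = 0.547, adjusted 0.741; rho = 0.036, exact permutation p = 0.963, adjusted 1) and r = 0.36 with Penk (exact permutation p = 0.423, adjusted 0.741; rho = 0.39, exact permutation p = 0.396, adjusted 0.89). Without the arrays farthest from each median these were 0.45 and 0.88 over 5 arrays.

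**Figure D4:**
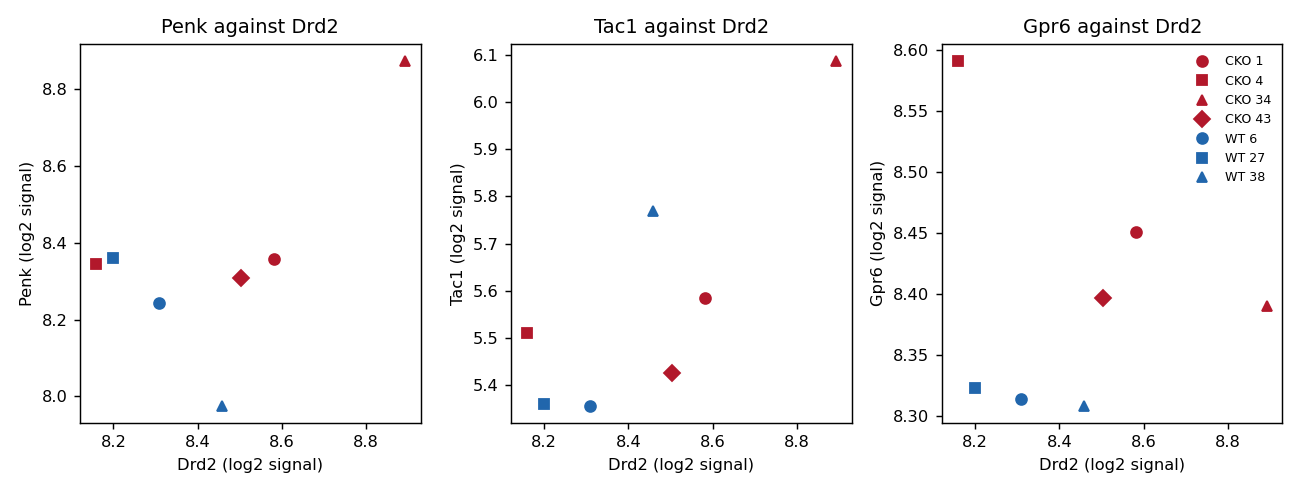
Log2 signal (RMA) of Penk, Tac1 and Gpr6 (vertical axes) against that of Drd2 (horizontal axes), with a marker for each of the 4 CKO arrays (red) and 3 WT arrays (blue). CKO 34 lies at the upper right for Penk and Tac1, and CKO 4, the lowest array for Drd2, is the highest for Gpr6.

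Among the tested genes, those most like Drd2 over the 7 arrays, by Pearson r as a description, were Gucy1b1 (0.99), Wls (0.97), Fmo1 (0.96), Gucy1a1 (0.96) and Gnb4 (0.96). Gucy1b1 and Gucy1a1 encode the beta and alpha subunits of soluble guanylate cyclase, the nitric oxide receptor, and Gnb4 encodes a G protein beta subunit. Gucy1b1 had log2 signals of 9.28, 8.95, 9.47 and 9.17 in CKO 1, CKO 4, CKO 34 and CKO 43, against 9.08, 8.94 and 9.15 in WT 6, WT 27 and WT 38. It followed Drd2 with CKO 34 highest and CKO 4 near the bottom. With group means subtracted these 5 genes kept r between 0.95 and 0.99 with Drd2, and r was over 0.9 for 21 genes. The 5 were picked from 16144 genes for the highest r over these same arrays, so these values are no separate support. How many genes would pass 0.9 by chance was not tested. The same holds for the genes most like Penk and Ppp1r1b.

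Those most like Penk were Zw10, Rmi2, Mmp10, Bnc2 and Nrk, each with r = 0.98, and r was over 0.9 for 46 genes. Bnc2, a zinc finger protein gene, was at 7.14, 7.12, 7.43 and 7.10 in CKO 1, CKO 4, CKO 34 and CKO 43, against 7.10, 7.14 and 7.01 in WT 6, WT 27 and WT 38. The likeness consisted mostly of a high CKO 34 and a low WT 38. Those most like Ppp1r1b were Ppm1e (0.99), E2f7 (0.98), Tor2a (0.98), Slit1 (0.98) and Gpc6 (0.97). Because Ppp1r1b separates the groups, these values hold the difference between genotypes too, and with group means subtracted they were 0.93, 0.87, 0.89, 0.88 and 0.85. Slit1, a secreted axon guidance ligand, was between 11.46 and 11.54 in CKO and between 11.21 and 11.28 in WT.

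Other genes of the pathway, counted from lists chosen by function, had differences of both signs. Of 4 dopamine receptor genes tested, 3 had a positive difference (Drd1, Drd2 and Drd4), and Drd4 differed by 0.12 (limma SE 0.058, adjusted p 0.727). Of 28 genes for G proteins, adenylyl cyclases, phosphodiesterases, kinases and phosphatases around the dopamine receptors, 9 had a positive and 19 a negative difference, and the median was -0.030. None was called by limma, and 5 had an unadjusted p under 0.05, 2 higher and 3 lower in CKO. Gnal, which encodes the alpha subunit of Golf, had log2 signals of 10.45, 10.58, 10.69 and 10.20 in CKO 1, CKO 4, CKO 34 and CKO 43, against 9.95, 10.24 and 9.97 in WT 6, WT 27 and WT 38. Its groups overlapped in 1 array pair, CKO 43 below WT 27, and it differed by 0.42 (limma SE 0.118, adjusted p 0.711). Gng7, the G protein gamma subunit that pairs with Golf in the striatum, differed by 0.21 (limma SE 0.073, adjusted p 0.714), without overlap between the groups.

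Of 9 genes of dopamine synthesis, transport and breakdown, 6 had a positive difference, and the median was 0.025, which turned to -0.0099 without CKO 1. Nr4a2, a nuclear receptor gene of dopamine neurons and of the cortical subplate, differed by -0.33 (limma SE 0.119, adjusted p 0.722), and the dopamine transporter gene Slc6a3 by 0.10 (limma SE 0.050, adjusted p 0.726). Th, the rate-limiting enzyme of dopamine synthesis, differed by 0.032 (limma SE 0.11, adjusted p 0.958). Of 7 adenosine genes, 3 were positive, with a median of -0.0018. Adk, which clears adenosine by phosphorylation, differed by 0.080 (limma SE 0.043, adjusted p 0.739), and the nucleoside transporter gene Slc29a1 by -0.080 (limma SE 0.045, adjusted p 0.74). The adenosine median moved between -0.029 without WT 38 and 0.027 without WT 27.

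Of the opioid and tachykinin peptide genes other than Penk and Tac1, all 5 tested had a positive difference, and the median was 0.086. Pdyn, the dynorphin precursor gene of direct pathway neurons, had log2 signals of 7.60, 7.62, 7.41 and 7.42 in CKO 1, CKO 4, CKO 34 and CKO 43, against 7.40, 7.21 and 7.22 in WT 6, WT 27 and WT 38. CKO 1 and CKO 4 were highest, as for Drd1, and the groups did not overlap (difference 0.24, limma SE 0.074, adjusted p 0.711). Pomc, the precursor gene of beta-endorphin, differed by 0.17 (limma SE 0.055, adjusted p 0.711). Of 6 genes of their receptors, 4 were positive, with a median of 0.028. Tacr1, the substance P receptor gene, differed by 0.24 (limma SE 0.081, adjusted p 0.711), and Oprd1, the delta opioid receptor gene that enkephalin acts on, by 0.15 (limma SE 0.072, adjusted p 0.727). The groups did not overlap for either.

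Of 7 genes of peptide processing and storage, 2 had a positive and 5 a negative difference, with a median of -0.10. The chaperone gene Scg5, needed for the maturation of the convertase PC2, differed by -0.25 (limma SE 0.064, adjusted p 0.683), and Pcsk1, the convertase gene PC1, by -0.21 (limma SE 0.081, adjusted p 0.723), both with every CKO array below every WT array. For 2.99% of all genes every CKO array lay below every WT array. Of 5 orphan receptor genes, among them the close relatives of Gpr6, Gpr3 and Gpr12, 2 were positive, with a median of -0.063 that turned to 0.0043 without WT 38. Gpr12 differed by -0.17 (limma SE 0.095, adjusted p 0.74) and Gpr139 by -0.11 (limma SE 0.067, adjusted p 0.752).

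Of 16 further marker genes of medium spiny neurons, some of them also in the lists above, 9 had a positive and 7 a negative difference, with a median of 0.015, close to that of all genes. Pdyn and Gng7 had the smallest p-values. The phosphodiesterase gene Pde10a and the adenylyl cyclase gene Adcy5, both abundant in the striatum, differed by -0.058 (limma SE 0.042, adjusted p 0.775) and -0.029 (limma SE 0.052, adjusted p 0.90). Of the 15 striatal transcription factor genes, 7 had an unadjusted p under 0.05, all higher in CKO, with a median of 0.18. Zfp503 differed by 0.24 (limma SE 0.063, adjusted p 0.69) and Ebf1 by 0.79 (limma SE 0.207, adjusted p 0.694). None of the genes in the lists from dopamine receptors to striatal transcription factors was called by limma.

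**Figure D5:**
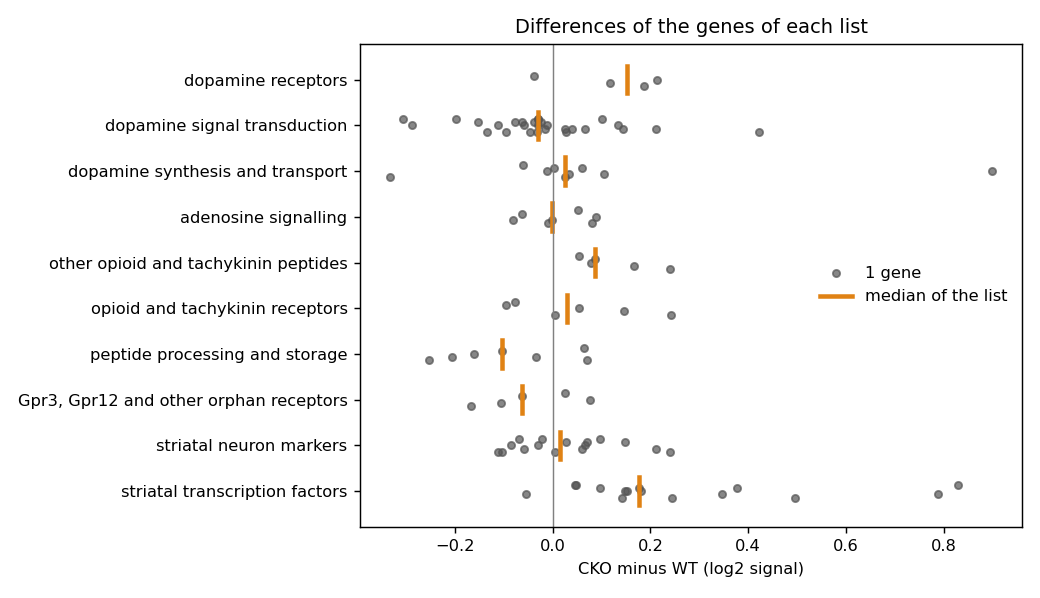
Difference in log2 signal, CKO minus WT (horizontal axis), of each tested gene (grey points) in 10 lists (rows), with the median of the list in orange. The medians run from -0.10 for peptide processing to 0.18 for striatal transcription factors, and the other striatal neuron markers lie on both sides of 0.

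Markers of other cells and regions that the tissue could hold were measured beside these genes, and their part in the differences above was not tested. Of 13 layer 6 markers, 1 was called by limma: Syt6, a synaptotagmin gene of corticothalamic neurons, rose by 0.67 (SE 0.041, adjusted p 0.0022), and differed by 0.66 within lot 2, where no gene was called. Ntsr1, a neurotensin receptor gene of these neurons, and Sox5, a transcription factor gene of deep-layer neurons, had every CKO array below every WT array. They differed by -0.47 (limma SE 0.114, adjusted p 0.655) and -0.14 (limma SE 0.049, adjusted p 0.711). The 4 with every CKO array above every WT array were Syt6, Hs3st4 (0.20), Fezf1 (0.23) and Tbr1 (0.14). Of the 13, 8 were positive, and the summed linear signal was 28020 to 28620 in CKO and 26280 to 28730 in WT. Of the 12 neocortical projection neuron genes 4 were positive, with a sum of 51050 to 52950 in CKO and 49670 to 54330 in WT. Neurod6 was at -0.20 (limma SE 0.057, adjusted p 0.711) and Emx2 at 0.29 (limma SE 0.093, adjusted p 0.711). Neurod6 is the locus from which Nex-Cre expresses Cre, so an effect of that allele on its signal cannot be told apart from other differences. Of 17 interneuron markers 11 were positive, with Npy at -0.51 (limma SE 0.064, adjusted p 0.10) and Htr3a at -0.60 (limma SE 0.166, adjusted p 0.711) among the negative ones, and Dlx5 at 0.39 (limma SE 0.116, adjusted p 0.711) and Dlx2 at 0.51 (limma SE 0.178, adjusted p 0.716) among the positive ones, and a sum of 18290 to 23360 in CKO and 18630 to 20850 in WT. All 5 cholinergic markers were positive, with the smallest p-values for Slc18a3 (0.11) and Lhx8 (0.18), with a sum of 913.6 to 1307 in CKO and 934.4 to 990.0 in WT.

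Of 8 thalamic markers 6 were positive, with the smallest p-values for Plekhg1 (0.22) and Tcf7l2 (0.083), with a sum of 6218 to 6510 in CKO and 5951 to 6148 in WT. Of 8 markers of the meninges and choroid plexus, 7 were positive, with the smallest p-values for Slc6a13 (0.22) and Col1a2 (0.33), with a sum of 2323 to 2883 in CKO and 2049 to 2379 in WT. Of 7 septal and piriform markers 5 were positive, with the smallest p-values for Lmo3 (-0.14) and Trh (0.090), with a sum of 11660 to 14790 in CKO and 12150 to 12910 in WT. Over all 17 lists, the genes below the filter were Oprk1, Drd5, Gch1, Ido1, Slc5a7, Vip, Aldh1a2, Clic6, Lum and Nts. CKO 1 stood apart for the transcription factor genes Lhx8 (8.01, with the remaining CKO arrays at 7.27 to 7.35 and WT at 7.28 to 7.33) and Zic1 (11.46, with the remaining CKO arrays at 10.23 to 10.48 and WT at 10.22 to 10.61). Without CKO 1 the difference was 0.17 for Drd1, 0.20 for Drd2, 0.14 for Gpr6, 0.44 for Ppp1r1b and 0.31 for Penk.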

How the data were processed

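Total RNA of 7 samples of whole neocortex (RNA integrity number 10, input 0.2 µg, extracted with Trizol) was labelled with biotin. Per the submitters' processing notes, the authors ran RMA in Affymetrix Expression Console, and the deposited values are log2 signals per probe set. Neither a version nor a genome build is stated in those notes. The platform annotation gave 1 gene symbol to 21786 of 35468 probe sets, several to 1621 and none to 12061. All 7 measured members matched the RefSeq gene table by Entrez identifier.

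Probe sets with 1 symbol and a mean at or above the 25th percentile of all probe sets (6.84) were kept, the brightest per gene, which gave 16144 genes. CKO was compared with WT with limma 3.58.1 in R 4.3.3 (lmFit and eBayes, no covariate, 3.28 prior and 5 residual degrees of freedom, Benjamini-Hochberg over all genes at 0.05). Single genes were given an exact permutation test over 35 splits, and correlations over 5040 orders of the arrays, or 144 within groups, in Python 3.11.15. The fit and the permutation test were tested on simulated data. Alternatives were other normalizations, filters, variance models, array weights, inferred array lot and leaving out each array. Replicate numbers are shared by no samples of different groups.

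The members and the gene lists were chosen with earlier results of these data known. Named were all members, of each list the genes passing 0.05 or else the 2 with the smallest p, and the 5 non-member genes with the highest r with Drd2, Penk and Ppp1r1b, predicted genes left out. Further names outside this rule were chosen after their values were seen. They are Isl1, Th, Ntsr1, Sox5, Hs3st4, Fezf1, Tbr1, Dlx5, Dlx2, Pde10a, Adcy5, Zic1, Slc18a2 and genes given as values beside a result.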

Additional observations from a re-analysis of the deposited data

Results flagged for a closer look

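Among the 4 CKO arrays, 1 array stood far from the other 3 for 2 of the 7 measured genes, by Dixon's ratio of the gap to the range. Chance flags about 5% of groups. For Penk the ratio was 0.913: CKO 34 was at 8.87 and the others between 8.31 and 8.36, and without CKO 34 the difference between CKO and WT was 0.14. For Rgs9 the ratio was 0.914: CKO 43 was at 8.97 and the others between 9.01 and 9.02, a gap of under 0.05 on the log2 scale.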

How the results depend on the processing

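With limma, 0 of the 6 tested members were called under every alternative run, while 3 had an unadjusted p under 0.05 over all arrays. The median difference of the 6 lay between 0.17 with array weights and 0.24 within lot 2, and with an array left out between 0.15 and 0.23. All genes called were 4 over all arrays, 1 with array weights, 0 with array lot as a fixed block and 0 within lot 2, and 1 to 6 with an array left out. Rgs9 turned to -0.0016 with lot as a fixed block and within lot 2, 2 settings that give the same difference. The cause of this turn was not tested. The other 106 of 108 alternative values of single members kept their direction, but some of them could not turn. Other filters, the mean of probe sets, the other variance model and the looser threshold left each member's difference as it was.

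Of 108 alternative correlations 96 kept their sign, 11 turned and 1 was at 0 (rho of Gpr6 with Drd2), and none passed the adjustment. Without the arrays farthest from the median, Drd1 with Drd2 turned to 0.47, Penk with Drd2 to -0.12 and Gpr6 with Drd2 to 0.75. With group means subtracted, Drd1 with Penk turned to -0.044 and Gpr6 with Penk to -0.35. Spearman's rho of Drd1 with Drd2 was 0.071. With an array left out, Drd1 with Drd2 ran from -0.19 to 0.44, Gpr6 with Drd2 from -0.33 to 0.60, Penk with Drd2 from -0.25 to 0.78, Tac1 with Penk from -0.71 to 0.96 and Gpr6 with Penk from -0.014 to 0.50. Each gene had 1 probe set, so averaging probe sets could not change a correlation, and lot 2 was too small for one. No paired analysis was possible because the groups share no replicate numbers.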

Other observations

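Slc18a2, the vesicular monoamine transporter gene, varied more between arrays than any other gene of the dopamine synthesis and transport list. It was at 8.995, 7.54, 9.15 and 9.25 in CKO 1, CKO 4, CKO 34 and CKO 43, against 8.02, 7.10 and 8.38 in WT 6, WT 27 and WT 38. CKO 4 and WT 27 were the lowest arrays of their groups, as they were for Isl1, Six3 and Drd2. The difference was 0.90 (limma SE 0.446, adjusted p 0.727), and the gene was singled out after its values were seen.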
